A study of Mus musculus with 7 samples.

Results

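The unfolded protein and integrated stress genes described here are 30 mouse genes that code for chaperones, disulfide isomerases and degradation factors of the endoplasmic reticulum (ER), for the sensors of ER stress and for the transcription factors and target genes that act downstream of them. They were taken by gene symbol from the 55536 genes of the deposited gene table. The rule uses symbols and no measured value, though the list was drawn up with earlier results of these data known. RNA was counted in single nuclei and in CD11b-selected single cells of the hippocampus by Split-seq, in which cells take up well barcodes in successive rounds of pooling and splitting. The 4 groups at 10 months of age were compared, each with 6 first-round wells of nuclei and 6 of single cells, 3 from females and 3 from males. WT-veh were mice without the transgene given water, WT-PMX were such mice given PMX205 in the drinking water, Arc-veh were Arctic mice given water, and Arc-PMX were Arctic mice given PMX205. Arctic mice are hemizygous for the Arctic48 transgene, which is human APP with the Indiana, Swedish and Arctic mutations, on C57BL6/J. PMX205, an antagonist of the complement receptor C5aR1, was given at 20 µg/ml, for 12 weeks by the series record, while the ages in the text of the study span a slightly shorter time. A well of nuclei held tissue of 1 mouse, and a well of single cells pooled mice of the same group and sex.

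Proteins that enter the secretory pathway fold in the ER with the help of chaperones and disulfide isomerases, and chains that do not fold are returned to the cytosol and degraded (ER-associated degradation, ERAD). When unfolded chains accumulate, the membrane sensors IRE1 (*Ern1*), PERK (*Eif2ak3*) and ATF6 start the unfolded protein response, which raises chaperone and degradation genes through the factors XBP1 and cleaved ATF6. PERK is also a kinase of the integrated stress response, in which phosphorylation of eIF2 slows translation and favours synthesis of ATF4, a factor that raises genes of amino acid supply and, under lasting stress, *Ddit3* (CHOP). These pathways have been studied at length in neurodegenerative disease, where protein aggregates accumulate.

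After filtering, 43891 nuclei and 3823 single cells remained. Wells of nuclei held 4389302 to 30003513 transcripts and wells of single cells 1135 to 1430787. Of the 43469 distinct 3-round barcodes of kept cells, 3972 occurred in more than 1 of the 7 sublibraries. Cells were named from marker genes, and the summed markers of the own type were 19600 to 27500 CPM (transcripts scaled to a common total for each well and cell type) over wells in neurons, 25800 to 39400 in astrocytes, 8330 to 16500 in microglial nuclei and 5880 to 16500 in single-cell microglia. *App* in neuron nuclei was 450 to 571 CPM in the wells of both WT groups and 548 to 796 CPM in those of both Arctic groups, but the human transgene is not a gene of the mouse reference. A total of 3 wells stood apart in plaque-associated genes or in numbers of glia. In single-cell microglia of WT-veh well F2, 6 genes known to rise in microglia around plaques (*Cst7*, *Itgax*, *Axl*, *Clec7a*, *Lpl* and *Gpnmb*) summed to 599.1 CPM, against at most 88.3 CPM in the other WT wells and 599.7 to 1319.4 CPM in Arctic wells. The WT-veh wells F3 and M3 of nuclei held few glia, with 1 and 3 microglia. According to the reporting summary, the authors dropped a WT sample whose genes were expressed as in Arctic mice, but no well is named there. All wells were kept here under their labels, and results that rest on these 3 are given without them as well.

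Short promoter sequences through which the pathways are known to act were searched for, and the promoters below are those of the marker gene of ER stress (*Hspa5*), a chaperone gene (*Calr*), a degradation gene with motifs of both branches (*Herpud1*), and the genes that differed between genotypes in astrocytes (*Pdia4* and *Edem1*). RefSeq promoters on GRCm38.p6, from 250 bases before to 50 after the start, were matched for 26 of the 30 genes. The ER stress element (ERSE, bound by ATF6 with NF-Y) was searched as CCAAT, 9 bases of any kind, then CCACG. ERSE-II was searched as ATTGG, 1 base, CCACG, the unfolded protein response element as TGACGTGG, and a composite site of ATF4 and C/EBP factors as TTGCATCA, all on both strands. Capitals mark these letters, and a match on the other strand appears as CGTGG and ATTGG.
*Hspa5*, chr2:34771840-34772139, plus strand: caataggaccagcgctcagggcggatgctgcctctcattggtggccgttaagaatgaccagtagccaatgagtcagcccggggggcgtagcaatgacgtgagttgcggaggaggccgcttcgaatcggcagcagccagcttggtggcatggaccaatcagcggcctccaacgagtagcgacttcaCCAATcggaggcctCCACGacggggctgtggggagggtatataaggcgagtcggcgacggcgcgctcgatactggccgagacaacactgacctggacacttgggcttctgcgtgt
*Calr*, chr8:84846882-84847181, minus strand: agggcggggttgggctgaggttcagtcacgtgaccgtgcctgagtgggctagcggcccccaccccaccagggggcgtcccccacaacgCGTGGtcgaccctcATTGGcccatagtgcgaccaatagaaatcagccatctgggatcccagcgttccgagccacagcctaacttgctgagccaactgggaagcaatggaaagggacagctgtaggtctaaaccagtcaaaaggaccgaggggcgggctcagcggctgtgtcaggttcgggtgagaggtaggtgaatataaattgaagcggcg
*Herpud1*, chr8:94386179-94386478, plus strand: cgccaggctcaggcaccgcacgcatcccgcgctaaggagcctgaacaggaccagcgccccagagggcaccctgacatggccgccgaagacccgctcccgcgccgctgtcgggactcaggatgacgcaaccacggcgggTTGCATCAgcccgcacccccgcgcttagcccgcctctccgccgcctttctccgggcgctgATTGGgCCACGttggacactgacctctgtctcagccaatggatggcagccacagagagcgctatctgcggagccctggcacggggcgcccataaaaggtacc
*Pdia4*, chr6:47813463-47813762, minus strand: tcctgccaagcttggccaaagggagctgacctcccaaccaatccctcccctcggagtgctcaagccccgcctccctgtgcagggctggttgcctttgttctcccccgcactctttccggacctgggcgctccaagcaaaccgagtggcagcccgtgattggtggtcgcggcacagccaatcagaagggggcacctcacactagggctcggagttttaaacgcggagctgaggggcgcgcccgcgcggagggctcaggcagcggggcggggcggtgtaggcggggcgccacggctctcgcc
*Edem1*, chr6:108828391-108828690, plus strand: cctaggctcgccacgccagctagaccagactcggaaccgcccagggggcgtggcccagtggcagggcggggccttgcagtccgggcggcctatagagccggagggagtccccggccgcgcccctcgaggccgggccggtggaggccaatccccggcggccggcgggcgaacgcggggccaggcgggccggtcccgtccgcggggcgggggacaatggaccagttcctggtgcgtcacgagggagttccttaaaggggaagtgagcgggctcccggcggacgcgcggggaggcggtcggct

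An ERSE occurred in 8 of the 26 promoters (*Calr*, *Canx*, *Creld2*, *Dnajc3*, *Hsp90b1*, *Hspa5*, *Pdia6* and *Syvn1*), against 39 of 32851 promoters of all genes (0.119%). ERSE-II occurred in *Dnajb11* and *Herpud1*, against 0.0365% of all promoters, and the ATF4 and C/EBP site in *Chac1* and *Herpud1*, against 0.895%. TGACGTGG occurred in none of the 26, against 0.676% of all promoters. *Pdia4* and *Edem1*, printed above, held none of the 4 motifs in this window. These are matches of letters and not measured binding.

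Levels were described first, without a test, as CPM of the summed transcripts of a well and cell type. These genes took up the largest share of all transcripts in microglia. The 30 genes together made up 1580 ± 288 CPM (SD, n = 21 wells) in microglial nuclei and 1536 ± 445 CPM (n = 20) in single-cell microglia, compared with 627.4 ± 47.6 CPM in neurons, 713.0 ± 72.4 in astrocytes, 709.4 ± 108 in oligodendrocyte precursors (OPC) and 847.2 ± 139 in oligodendrocytes (n = 24 each). Among these 5 nuclear types, 24 of the 30 genes had their highest mean in microglia, some of them at the detection limit, such as *Trib3* and *Chac1*. Within wells, 9 of the 30 genes were higher in microglia than in neurons in at least 90% of wells, 7 than in astrocytes, 3 than in oligodendrocytes and 2 than in OPC. The others were highest in astrocytes (4), neurons (1) and OPC (1). No such counts over all genes are given here, so a trait of these 30 genes cannot be told from one of most genes. A level in summed counts is a share of all transcripts, so fewer cells of a state and less RNA per cell could not be told apart.

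**Figure D1:**
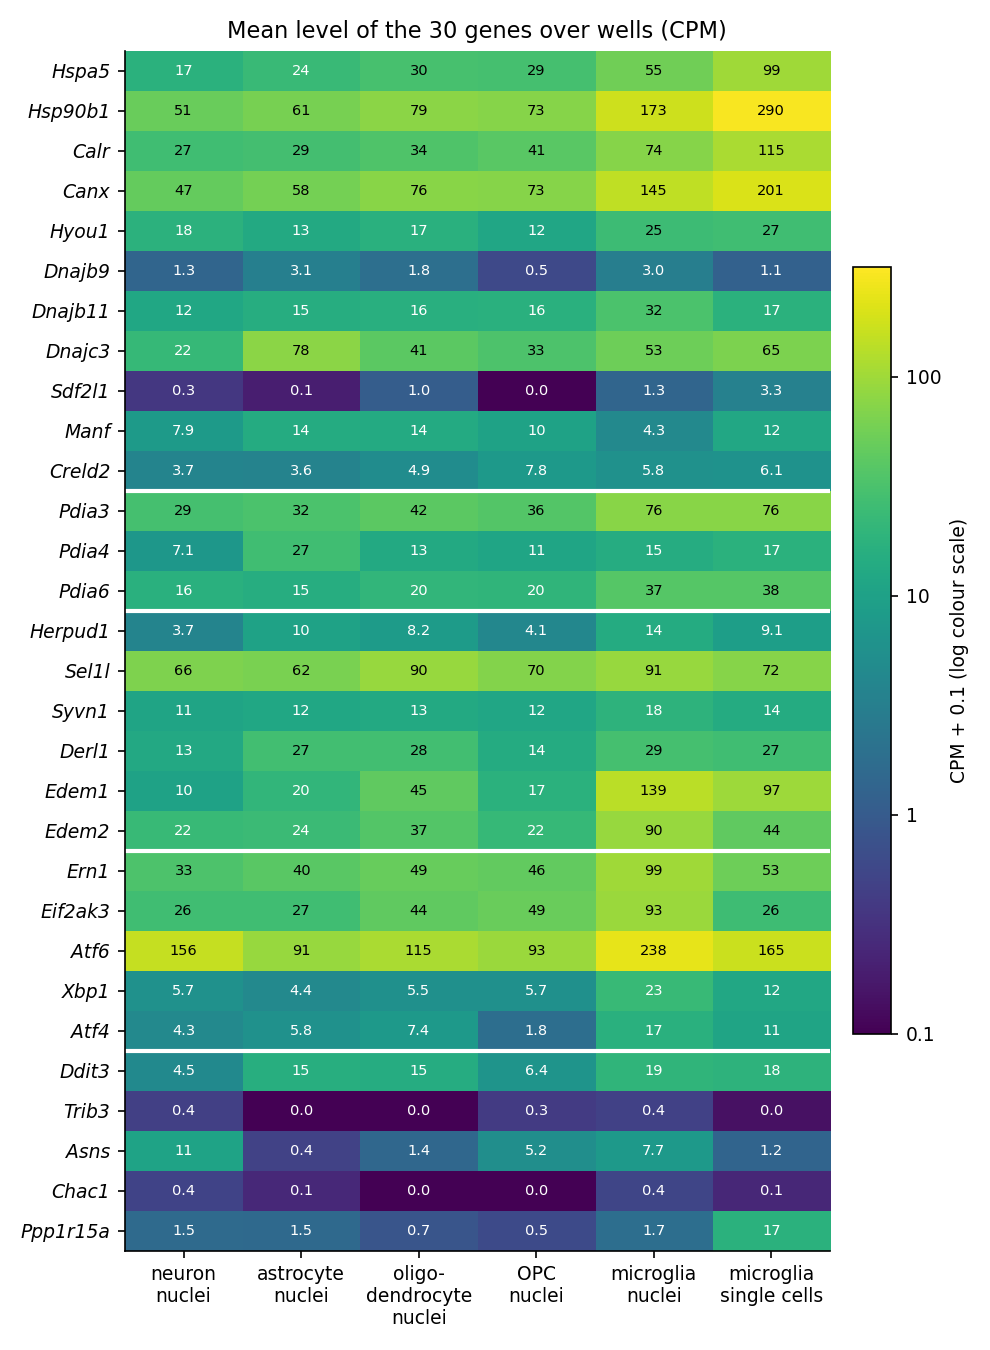
Mean level of each of the 30 genes (rows, grouped by role with white lines between roles) in nuclei of 5 cell types and in single-cell microglia (columns), as CPM averaged over wells of all groups, with a logarithmic colour scale. Microglia columns are the brightest for most chaperones, and *Atf6* is bright in every column.

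In microglial nuclei, OPC and neurons the ER chaperones were led by *Hsp90b1* (GRP94), *Canx* and *Calr* (calnexin and calreticulin, which bind glycoproteins). *Hsp90b1* averaged 173 CPM in microglial nuclei, 78.8 in oligodendrocytes, 73.4 in OPC, 61.4 in astrocytes and 50.5 in neurons. *Hspa5* (BiP, the ER member of the HSP70 family) followed the same order at a lower level, from 55.1 CPM in microglial nuclei to 16.9 in neurons. *Dnajc3*, a co-chaperone of BiP, was highest in astrocytes with 78.4 CPM, against 52.5 in microglia and 22.1 in neurons. *Sdf2l1* and *Dnajb9*, also partners of BiP, were near the detection limit, at or below 1.30 and 3.14 CPM in each of the 5 nuclear types. Values of *Manf*, a secreted ER protein, are uncertain, because its annotated span shares 42681 bases with *Dcaf1*. *Dnajb11*, *Hsp90b1*, *Ddit3* and *Eif2ak3* share 4652, 4598, 2925 and 2449 bases with other gene models.

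Among the disulfide isomerases, *Pdia3*, which acts with calnexin and calreticulin, averaged 76.4 CPM in microglial nuclei and 29.4 in neurons. *Pdia4* had a different order and was highest in astrocytes, at 26.9 CPM against 14.7 in microglia, 13.3 in oligodendrocytes and 7.06 in neurons. Among the degradation genes, *Edem1*, a lectin that marks misfolded glycoproteins for removal, averaged 139 CPM in microglial nuclei, 44.6 in oligodendrocytes, 19.7 in astrocytes and 10.2 in neurons. *Sel1l*, the scaffold of the ERAD ligase, was more even, between 61.6 CPM in astrocytes and 91.4 in microglia.

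*Atf6* had the largest count of the 30 genes in each of the 5 nuclear types, with 238 CPM in microglia and 156 in neurons. The nuclear level rose with the length of the gene, with a Spearman correlation of 0.667 to 0.751 between level and annotated span over the 30 genes in the 5 nuclear types and 0.529 in single-cell microglia. The 30 points of a type share their libraries, and these values are descriptions. Per kilobase of annotated gene, neurons held 5.29 CPM of *Calr*, 3.30 of *Hsp90b1*, 3.03 of *Hspa5* and 0.954 of *Atf6*. On that scale *Calr*, *Hsp90b1* and *Hspa5* led, followed by *Atf4* at 1.84, while other chaperones reached down to 0.121 (*Sdf2l1*). *Trib3*, a pseudokinase raised by CHOP, was lowest at 0.0553 CPM per kilobase.

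Single-cell microglia were prepared with inhibitors of transcription and translation (actinomycin D, triptolide and anisomycin) and CD11b beads, and nuclei without that selection, so the preparations were not tested against each other. Of the 30 genes, 12 had the higher mean CPM in cells and 18 in nuclei. *Ppp1r15a* (GADD34), an early stress gene that reverses eIF2 phosphorylation, averaged 17.2 ± 27.4 CPM in cells (SD, n = 20) and 1.73 ± 5.21 CPM in nuclei (n = 21). *Eif2ak3* was the other way round, with 25.9 CPM in cells and 92.7 in nuclei. *Hspa5*, *Hsp90b1*, *Calr* and *Canx* were 1.81, 1.68, 1.57 and 1.39 times as high in cells. In the smaller nuclear types, the summed level was 1010 CPM in choroid plexus and 1010 CPM in fibroblasts (n = 12 wells each), 893 in ependymal cells, 884 in endothelial cells and 788 in pericytes, where 19 of the 30 genes had fewer than 10 transcripts in all.

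Hippocampal neurons differed among themselves. Nuclei with dentate granule, CA1, CA3 and inhibitory markers were compared within each of the 24 wells. *Atf6*, the sensor that is cut in the Golgi to become a transcription factor, was 273 ± 21.1 CPM (SD) in dentate granule nuclei, 156 ± 23.9 in CA3, 132 ± 9.20 in CA1 and 87.0 ± 9.78 in inhibitory nuclei. Dentate granule nuclei exceeded every other class in 24 of 24 wells, and inhibitory nuclei were below every other class in 24 of 24 wells. *Edem2*, a mannosidase of the degradation pathway, was also higher in dentate granule nuclei (36.2 ± 7.52 CPM) than in CA1 (20.1 ± 4.39), CA3 (19.1 ± 5.03) and inhibitory nuclei (18.6 ± 5.99). *Sel1l* went the other way, with 48.9 CPM in dentate granule nuclei and 68.2 to 79.2 in the other classes, lower in 24 of 24 wells against each.

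Inhibitory nuclei had the higher mean of 20 of the 30 genes against CA1 and of 23 against CA3 and against dentate granule nuclei, but 7, 6 and 7 of them were higher in at least 90% of wells. These counts, too, have no counterpart over all genes here, so they are not shown to be particular to the 30 genes. The summed level was 624.4 ± 55.0 CPM in inhibitory and 725.0 ± 59.0 CPM in dentate granule nuclei. *Ddit3* and *Asns*, picked after their values were seen, were among the genes higher in inhibitory nuclei. *Ddit3* was 11.7 ± 4.77 CPM in inhibitory nuclei, 4.43 ± 1.56 in dentate granule, 2.72 ± 1.18 in CA3 and 2.18 ± 1.09 in CA1 nuclei. *Asns*, asparagine synthetase and a target of ATF4, was 21.0 ± 6.40 CPM in inhibitory nuclei and 8.35 to 9.38 in the other classes. Inhibitory nuclei were the higher in 23 or 24 of 24 wells in each of these comparisons. *Herpud1*, a stress-induced ERAD adaptor, was 7.43 CPM in inhibitory nuclei and 2.53 to 3.42 in the others. *Trib3* averaged 1.98 CPM in inhibitory nuclei, from 51 transcripts in all, and 0.0710 to 0.189 in the other classes, and *Chac1*, which breaks down glutathione, 1.22 CPM and 0.134 to 0.431. *Atf4* itself varied less, with 5.09 CPM in inhibitory, 4.90 in CA3, 4.37 in CA1 and 3.44 in dentate granule nuclei. The difference was seen in each of the 3 inhibitory clusters, where *Asns* was 18.7 to 31.2 CPM, against 3.18 to 15.6 CPM in the 8 clusters of the dentate granule, CA1 and CA3 classes. *Ddit3* was 8.38 to 13.5 CPM in the inhibitory clusters and at most 7.95 CPM in those 8. A single cluster with other excitatory markers had 18.5 CPM of *Asns*, close to the lowest inhibitory cluster, and 7.20 CPM of *Ddit3*. Among clusters of neurons that no class could be given, *Asns* was 4.06 to 24.3 CPM and *Ddit3* 0 to 20.1 CPM. The cluster with the highest *Asns* had 0.696 CPM of *Ddit3*. Unclassed clusters 9 and 37 had *Gad2* among their top genes and inhibitory as their best class. *Asns* was 14.3 and 8.92 CPM in them, within the range of those 8 clusters, and *Ddit3* was 7.43 and 20.1 CPM. *Ddit3* shares part of its span with neighbouring gene models, so its level is less certain than that of *Asns*.

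**Figure D2:**
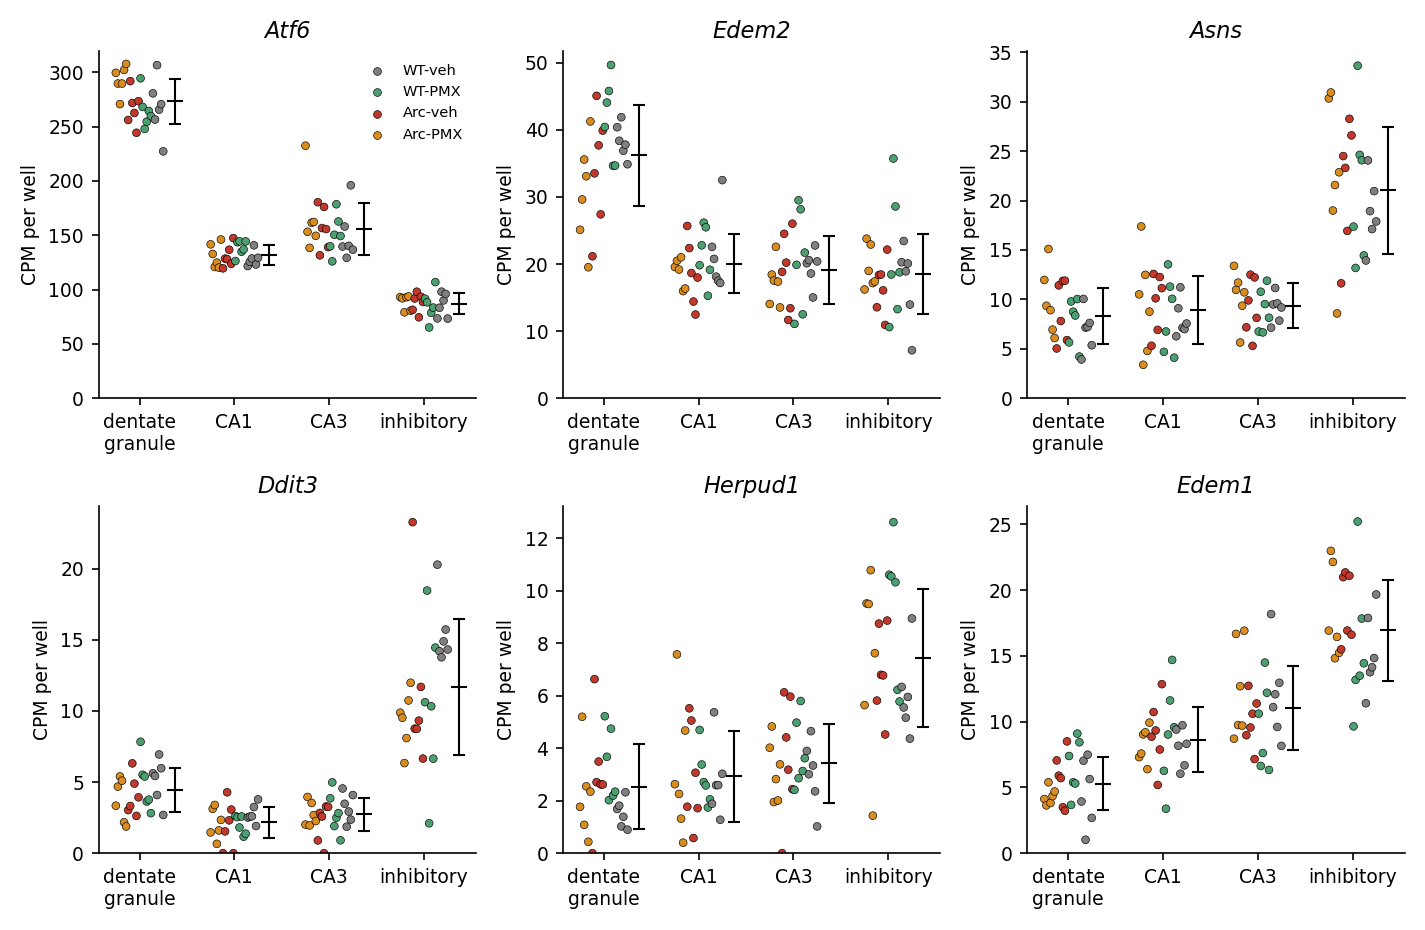
CPM per well (y axes, starting at 0) of *Atf6*, *Edem2*, *Asns*, *Ddit3*, *Herpud1* and *Edem1* in nuclei of 4 neuron classes, with 1 point per well coloured by group and the mean ± SD over 24 wells beside the points. *Atf6* and *Edem2* are highest in dentate granule nuclei, and *Asns*, *Ddit3*, *Herpud1* and *Edem1* in inhibitory nuclei, with wells of all groups mixed.

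Differences between groups were then tested by edgeR over all genes of each of 10 cell groups (neurons, astrocytes, oligodendrocytes, OPC and microglia of the nuclei, microglia of the single cells, and the 4 neuron classes, which are subsets of the neurons). A gene was called at an adjusted p under 0.05. The filter on low counts left 151 tests of the 30 genes: 27 genes in neurons, 15 in astrocytes, 11 in oligodendrocytes, 6 in microglial nuclei, 4 in OPC, 3 in single-cell microglia, and 20 to 22 in the neuron classes. *Hsp90b1*, *Canx* and *Atf6* were tested in all 10 cell groups, and *Sdf2l1*, *Trib3* and *Chac1* in none.

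For genotype, averaged over water and PMX205, 2 of the 151 tests were called, both in astrocytes and both higher in Arctic mice. Over all genes of the 10 cell groups 3.87% were called in this contrast, and at an unadjusted p under 0.05 the shares were 16 of 151 tests for the 30 genes and 11.5% for all genes. For Arc-veh minus WT-veh, 1 test was called (all genes, 2.04%), and for Arc-PMX minus WT-PMX, which shares no well with it, 1 was called (all genes, 1.93%). For the effect of PMX205 no test was called by edgeR or by DESeq2, neither in Arctic mice (all genes, 0.00413%) nor in WT mice (all genes, 0%), nor for the difference between these effects (all genes, 0%). At an unadjusted p under 0.05, 5, 4 and 4 of the 151 tests passed in these contrasts. For all genes the shares at that limit were 2.41%, 3.82% and 3.33%, against 3.31%, 2.65% and 2.65% for the 30 genes.

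In astrocyte nuclei, *Pdia4* and *Edem1* rose in Arctic mice, 2 of the 15 genes tested, where 20% of all genes tested were called. *Pdia4* (chr6:47796141-47813430, minus strand), a disulfide isomerase found with BiP, had 9.8 to 32.1 CPM in WT-veh wells with a median of 18.7, and 9.8 to 29.4 CPM in WT-PMX wells with a median of 16.8. Arc-veh wells held 11.0 to 41.3 CPM with a median of 34.9, and Arc-PMX wells 12.1 to 51.4 CPM with a median of 36.4. Each Arctic group had 1 low well, F1 of Arc-veh and F3 of Arc-PMX, and the other 10 Arctic wells lay above the highest WT well. The log2 fold change averaged over treatment was 0.766 ± 0.198 (SE, 95% interval 0.366 to 1.167, adjusted p = 0.00351). Under PMX205 it was 0.887 ± 0.271 (adjusted p = 0.025, all genes 11.3% called), a call lost in 7 of 36 alternatives (adjusted p up to 0.0749), and under water 0.646 ± 0.288 (adjusted p = 0.161, all genes 12.4%). PMX205 in Arctic mice gave 0.116 ± 0.240 for *Pdia4* (adjusted p = 1.0).

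*Edem1* (chr6:108828641-108859356, plus strand) had 0 to 17.5 CPM in WT-veh astrocytes with a median of 11.0, 12.5 to 23.5 CPM in WT-PMX with a median of 18.2, 17.9 to 33.4 CPM in Arc-veh with a median of 23.0, and 11.4 to 40.4 CPM in Arc-PMX with a median of 24.8. All 6 Arc-veh wells exceeded the highest WT-veh well, while Arc-PMX and WT-PMX overlapped. The averaged log2 fold change was 0.757 ± 0.238 (SE, adjusted p = 0.0181), with 1.075 ± 0.362 under water (adjusted p = 0.0442) and 0.440 ± 0.306 under PMX205 (adjusted p = 0.46). The difference between the genotype effects was not called (log2 difference -0.635, adjusted p = 1.0). The call under water was lost in 15 alternatives, among them leaving out any of 10 single wells, whereas the averaged calls of *Edem1* and *Pdia4* held in every alternative run that touches nuclei, with values of 0.646 to 0.868 and 0.698 to 0.867.

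**Figure D3:**
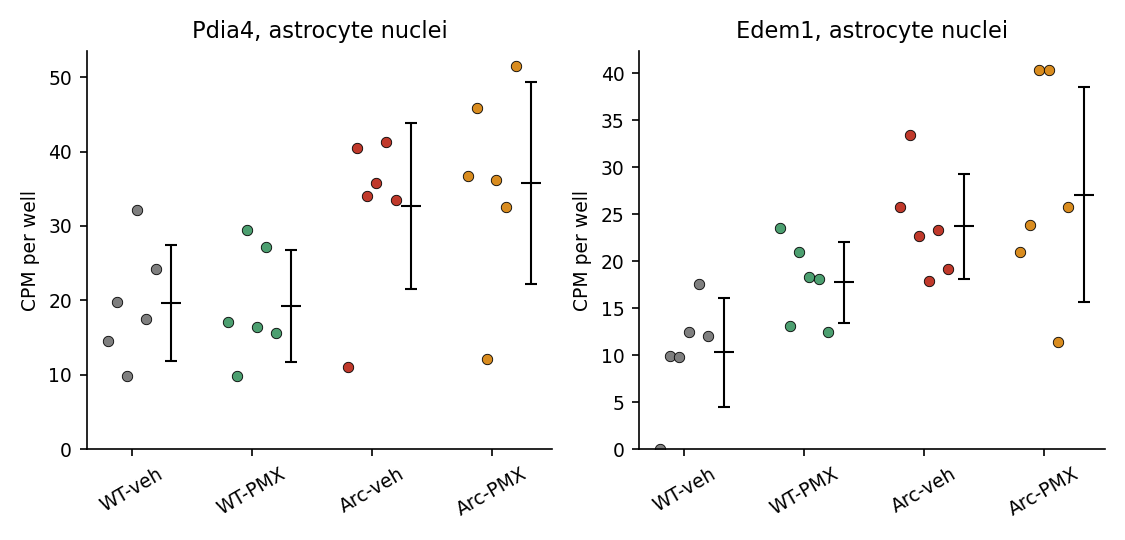
CPM of *Pdia4* (left) and *Edem1* (right) in astrocyte nuclei, with 1 point per well, 6 wells per group, and the mean ± SD of the group beside the points. Most Arctic wells of *Pdia4* lie above the WT wells apart from 1 low well in each Arctic group, and all 6 Arc-veh wells of *Edem1* lie above those of WT-veh.

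Astrocytes fell into 3 clusters, and most WT nuclei (57.8%) were in cluster 4, while most Arctic nuclei (60.8%) were in cluster 5, which had the highest *Gfap* (1680 CPM in Arctic and 782 CPM in WT nuclei). *Pdia4* was 18.6 CPM in WT and 20.9 CPM in Arctic nuclei of cluster 4, 36.6 and 42.0 in cluster 5, and 19.9 and 26.2 in cluster 11. As means over wells, *Pdia4* was 19.9 ± 13.2 CPM in WT and 16.3 ± 17.7 in Arctic wells of cluster 4 (SD, n = 12 and 10), 47.0 ± 50.1 and 40.3 ± 12.9 in cluster 5 (n = 12 and 12), and 16.0 ± 12.1 and 25.6 ± 16.0 in cluster 11 (n = 10 and 10). The direction of *Pdia4* in clusters 4 and 5 thus differed between pooled values and means over wells. *Edem1* was 13.4 CPM in WT and 22.2 in Arctic nuclei of cluster 4, 15.7 and 23.0 in cluster 5, and 16.3 and 29.2 in cluster 11, from as few as 9 transcripts. For *Edem1* the Arctic value was higher in each cluster, also as a mean over wells. The values within clusters were not tested.

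Other measures moved with genotype in the same astrocyte wells. The 10 microglial markers summed to medians of 54.8 CPM in WT-veh (39.4 to 80.2), 62.9 in WT-PMX (50.1 to 109), 92.5 in Arc-veh (76.6 to 123) and 124 in Arc-PMX (82.7 to 164). Microglial nuclei held more *Edem1* (139 CPM) than astrocytes (19.7), but less *Pdia4* (14.7 against 26.9). *Tmem119* and *C1qa*, which define microglia, were at 0.0822 and 0.247 CPM in astrocytes, and *Apbb1ip* and *P2ry12* were at 35.2 and 24.0 CPM. The 10 astrocyte markers fell from medians of 35900 and 35700 CPM in WT-veh and WT-PMX to 29700 and 29100 CPM in Arc-veh and Arc-PMX. The fibroblast markers fell from 401 and 346 CPM to 173 and 179 CPM, while the pericyte markers went from 240 and 308 CPM to 405 and 377 CPM. These sums rested on few genes. *Ranbp3l* (157 CPM) and *Cped1* (77.8) led the fibroblast sum, and *Atp13a5* (170), *Pdgfrb* (127) and *Notch3* (48.0) the pericyte sum. *Dcn* and *Vtn* were at 0.329 and 0.164 CPM, and *Col3a1*, *Lum* and *Kcnj8* at 0. Depth moved as well, with a median of 1270 transcripts per nucleus in WT-veh, 1600 in WT-PMX, 2920 in Arc-veh and 2320 in Arc-PMX. The part of these measures in the 2 calls was not tested.

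The other 13 genes tested in astrocytes were not called, with averaged log2 fold changes from -0.344 (*Canx*, adjusted p = 0.106) upward. *Canx* was called lower in Arctic mice without WT-veh well M1 (-0.425, adjusted p = 0.0352) and without WT-PMX well M1 (-0.415, adjusted p = 0.035). *Hspa5* had medians of 28.5 CPM in WT-veh, 22.3 in WT-PMX, 16.9 in Arc-veh and 25.6 in Arc-PMX astrocytes, with a lowest well of 10.0 and a highest of 39.0, and an averaged log2 fold change of -0.087 ± 0.203 (adjusted p = 0.84). *Hsp90b1* had medians of 76.1, 59.7, 52.3 and 55.7 CPM with wells from 29.5 to 113 (-0.324 ± 0.164, adjusted p = 0.181), and *Calr* medians of 21.9, 29.4, 29.1 and 21.2 CPM with wells from 14.6 to 54.6 (0.005 ± 0.189, adjusted p = 0.999). *Eif2ak3* had medians of 25.7, 26.5, 28.3 and 27.4 CPM with wells from 11.0 to 39.4 (0.122 ± 0.187, adjusted p = 0.746). The groups of these 4 genes overlapped. *Xbp1* and *Atf4* were below the count filter in astrocytes, at 0 to 9.8 and 0 to 13.1 CPM per well, with at least 1 well of *Xbp1* at 0 in each group.

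In neuron nuclei none of the 27 genes tested was called for genotype by edgeR or DESeq2 (all genes, 0.153%), and 3 of them had an unadjusted p under 0.05, as had 1034 of the 15016 genes tested. For 25 of the 27 the 95% interval of the averaged change lay within 1.5-fold in either direction, and for all 27 within 2-fold. The estimates ran from -0.387 (*Hspa5*) to 0.218 (*Asns*) on the log2 scale. Of the 10 chaperones tested, 8 had a lower estimate in Arctic mice, with a median of -0.122, whereas 4 of the 5 sensors and factors had a higher one, with a median of 0.082. The median was -0.024 over the 27 genes and 0 over all genes tested in neurons. These signs were not tested.

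*Hspa5* had the largest difference in neurons. WT-veh wells held 14.7 to 23.0 CPM with a median of 18.5, WT-PMX wells 11.4 to 28.7 with a median of 20.4, Arc-veh wells 12.4 to 15.4 with a median of 14.3, and Arc-PMX wells 12.0 to 17.3 with a median of 15.5. All 6 wells of each Arctic group were below the median of the WT group with the same treatment, but the groups overlapped. The log2 fold change of -0.387 ± 0.119 (SE, 95% interval -0.631 to -0.142) had an adjusted p of 0.342. With no filter on low counts it was -0.381 with an adjusted p of 0.0261 (all neuron genes, 0.528%). The other genes with an unadjusted p under 0.05 were *Hyou1*, another chaperone, at -0.240 (adjusted p = 0.552), and *Edem2* at -0.217 (adjusted p = 0.549).

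The other genes fixed for description in neurons differed less. *Hsp90b1* had medians of 50.4 CPM in WT-veh, 49.7 in WT-PMX, 43.4 in Arc-veh and 47.9 in Arc-PMX neurons, with wells from 35.5 to 85.3 (averaged log2 fold change -0.180 ± 0.111, adjusted p = 0.795). *Calr* had medians of 25.6, 28.8, 25.8 and 24.2 CPM with wells from 16.9 to 39.5 (-0.072 ± 0.124, adjusted p = 0.94). The sensor *Eif2ak3* had medians of 24.5, 26.8, 28.2 and 26.2 CPM with wells from 20.4 to 31.6 (0.095 ± 0.064, adjusted p = 0.811). *Xbp1* and *Atf4*, the transcription factors of both branches, had medians of 5.2 to 6.9 CPM and 3.6 to 5.2 CPM in the 4 groups. Their averaged changes were 0.082 ± 0.151 (adjusted p = 0.945) and 0.159 ± 0.195 (adjusted p = 0.913). The groups of these 5 genes overlapped. *Ddit3*, *Asns* and *Ppp1r15a* were tested in neurons as well, with no call.

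**Figure D4:**
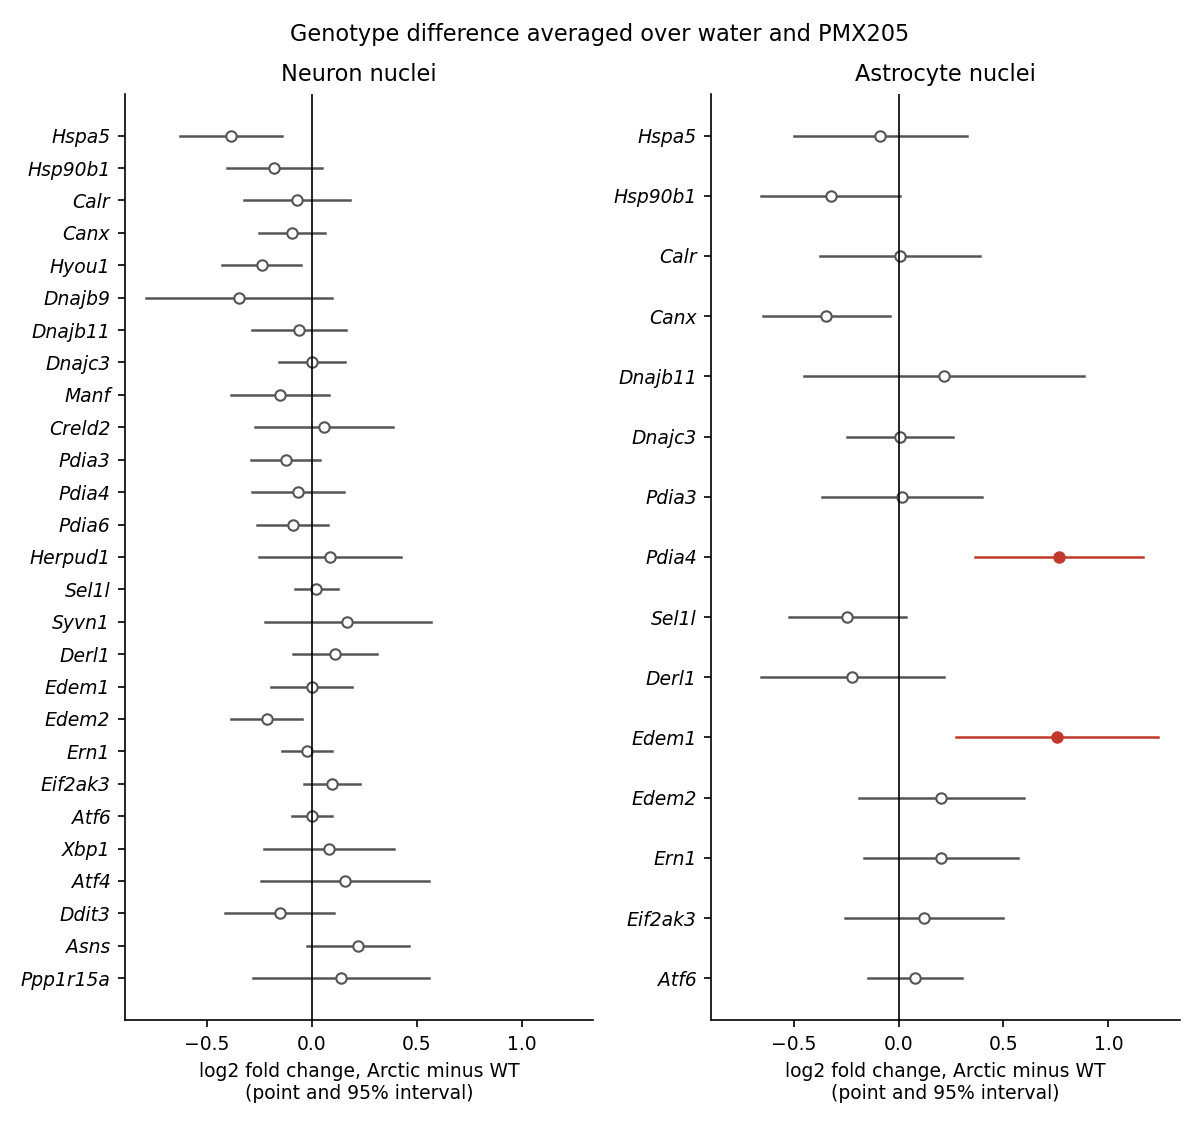
Log2 fold change of Arctic minus WT, averaged over water and PMX205, with 95% intervals for the 27 genes tested in neuron nuclei (left) and the 15 tested in astrocyte nuclei (right), ordered by role. Filled red points are called (*Pdia4* and *Edem1* in astrocytes) and open points are not, and the neuron estimates lie between -0.387 and 0.218.

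No gene was called in a neuron class. In the averaged genotype contrast 22 genes were tested in dentate granule nuclei (all genes, 1.62%), 22 in CA1 (all genes, 0.0915%), 21 in CA3 (all genes, 0.422%) and 20 in inhibitory nuclei (all genes, 0.0113%). At an unadjusted p under 0.05 there were 4, 3, 1 and 1, against 1151 of 10354, 644 of 9837, 663 of 9709 and 437 of 8854 genes. *Hspa5* was at -0.492 ± 0.163 in inhibitory nuclei (adjusted p = 0.717) and *Hyou1* at -0.345 ± 0.120 in CA1 (adjusted p = 0.462) and -0.363 ± 0.130 in CA3 (adjusted p = 0.472). All 8 chaperones tested in CA1 and all 8 in inhibitory nuclei had estimates below 0, with medians of -0.222 and -0.210. In CA3 7 of 8 were below 0, with a median of -0.213, and in dentate granule nuclei 6 of 8, with a median of -0.046. Over all genes tested, the medians were 0 in CA1 and in inhibitory nuclei, 0.002 in CA3 and 0.001 in dentate granule nuclei. The chaperones of a class, and the classes, share their wells, and *Manf*, whose values are uncertain, is among the 8. The signs were not tested. In the contrast of PMX205 with water in Arctic mice, *Hspa5* in inhibitory nuclei was 0.643 ± 0.240 with an adjusted p of 1.0.

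In microglial nuclei none of the 6 genes tested was called (all genes, 20.5%), and none had an unadjusted p under 0.05. *Hsp90b1* was 57.7, 311, 183 and 61.0 CPM in the 4 WT-veh wells, 327, 125, 276, 256 and 119 CPM in the 5 WT-PMX wells, 59.0 to 163 CPM in Arc-veh with a median of 119, and 130 to 344 CPM in Arc-PMX with a median of 186. WT wells were too widely spread to be told from Arctic wells (-0.465 ± 0.287, adjusted p = 0.301), and the estimate was -0.067 without WT-veh well F2 and 0.099 with cells named one by one. *Eif2ak3* was 57.7, 133, 91.2 and 244 CPM in WT-veh, 54.5, 250, 190, 56.8 and 0 CPM in WT-PMX, 61.6 to 99.1 in Arc-veh with a median of 78.2, and 41.5 to 158 in Arc-PMX with a median of 49.4 (-0.706 ± 0.380, adjusted p = 0.223). The estimate of *Eif2ak3* was -0.817 to -0.064 over the alternatives, weakest with cells named one by one.

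The other genes fixed for description were below the count filter in microglial nuclei. *Hspa5* was 0, 66.7, 60.8 and 122 CPM in WT-veh, 54.5, 125, 34.5, 28.4 and 59.3 in WT-PMX, 0 to 73.6 in Arc-veh and 40.0 to 102 in Arc-PMX. *Calr* was 173, 44.4, 122 and 61.0 CPM in WT-veh, 54.5, 0, 86.2, 56.8 and 59.3 in WT-PMX, 42.6 to 89.3 in Arc-veh and up to 125 in Arc-PMX. *Xbp1* and *Atf4* reached 125 and 122 CPM in single WT wells, with a WT well at 0 for each. In each of these 4 genes the WT wells covered the whole Arctic range. In oligodendrocytes 0 of 11 genes were called (all genes, 5.55%) and in OPC 0 of 4 (all genes, 2.49%), with no unadjusted p under 0.05 in either. The estimates were -0.332 to 0.381 in oligodendrocytes and -0.220 to 0.004 in OPC, and all of their 95% intervals lay within 2-fold. In microglial nuclei 4 of 6 intervals did.

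In single-cell microglia *Hsp90b1*, *Canx* and *Atf6* were tested and none was called for genotype (all genes, 19.5%), with 1 unadjusted p under 0.05. *Hsp90b1* was 333, 305, 68.0, 177 and 296 CPM in the 5 WT-veh wells, 234, 214, 295 and 95.8 CPM in the 4 WT-PMX wells, 345, 226, 386, 711 and 299 CPM in the 5 Arc-veh wells, and 197 to 439 CPM in Arc-PMX with a median of 296. Arctic wells reached higher but overlapped with WT wells. The averaged log2 fold change was 0.622 ± 0.254 (SE, adjusted p = 0.0853), and 0.674 with an adjusted p of 0.0988 without WT-veh well F2. It was called without the filter on low counts (0.893, adjusted p = 0.0366). Without Arc-veh well M2, the highest, it was 0.397 (adjusted p = 0.258).

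*Calr* was below the count filter in single-cell microglia, where 2 wells held no transcript of it and several held 1. It was 23.8, 47.0, 68.0, 88.3 and 73.9 CPM in WT-veh, 50.1, 0, 120 and 0 CPM in WT-PMX, 161, 47.7, 105, 501 and 366 CPM in Arc-veh, and 20.0 to 239 CPM in Arc-PMX with a median of 103. Of the 5 Arc-veh wells, 4 exceeded all WT-veh wells, while Arc-PMX overlapped with both WT groups. Without the filter, *Calr* was higher in Arctic mice by 1.891 ± 0.370 on the log2 scale in the averaged contrast (adjusted p = 5.84e-05, all genes 2.86% called) and by 2.526 ± 0.538 under water (adjusted p = 0.000896, all genes 0.824%). The averaged value was 1.470 to 2.515 when any single-cell well was left out, called in 20 of 20 cases, which share most of their wells. Without WT-veh well F2 it was 2.029 (adjusted p = 0.000126). The call under water held in 19 of 20 cases and was lost without Arc-veh well M2 (1.923, adjusted p = 0.118). In Arc-PMX minus WT-PMX it was 1.256 ± 0.519 with an adjusted p of 0.389, and between 0.904 and 2.444 when a well was left out, the highest without WT-PMX well M2.

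*Hspa5* in single-cell microglia was 0, 82.2, 204, 177 and 148 CPM in WT-veh, 33.4, 0, 98.3 and 31.9 in WT-PMX, 119, 77.4, 105, 258 and 133 in Arc-veh, and 39.9 to 140 in Arc-PMX, so the groups overlapped. Its highest well, Arc-veh M2, was also the highest for *Hsp90b1* and *Calr*, so these genes lean on the same well. *Xbp1* and *Atf4* reached at most 47.6 and 31.9 CPM, with wells at 0 in each group. *Eif2ak3*, also below the filter, was 23.8, 11.7, 0, 0 and 0 CPM in WT-veh, from 2 transcripts in all, 50.1, 0, 21.8 and 0 in WT-PMX, 36.5, 35.7, 70.2, 26.3 and 66.5 in Arc-veh, and 0 to 50.5 in Arc-PMX. The WT-veh wells held too few transcripts of *Eif2ak3* for a comparison. The smallest unadjusted p of the 151 tests of PMX205 in Arctic mice was that of *Canx* in single-cell microglia, lower in Arc-PMX by -1.041 ± 0.263 on the log2 scale, with an adjusted p of 0.339. *Edem1* in oligodendrocytes was 0.823 ± 0.279 (adjusted p = 1.0) and *Hsp90b1* in microglial nuclei 0.720 ± 0.280 (adjusted p = 1.0) in that contrast.

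**Figure D5:**
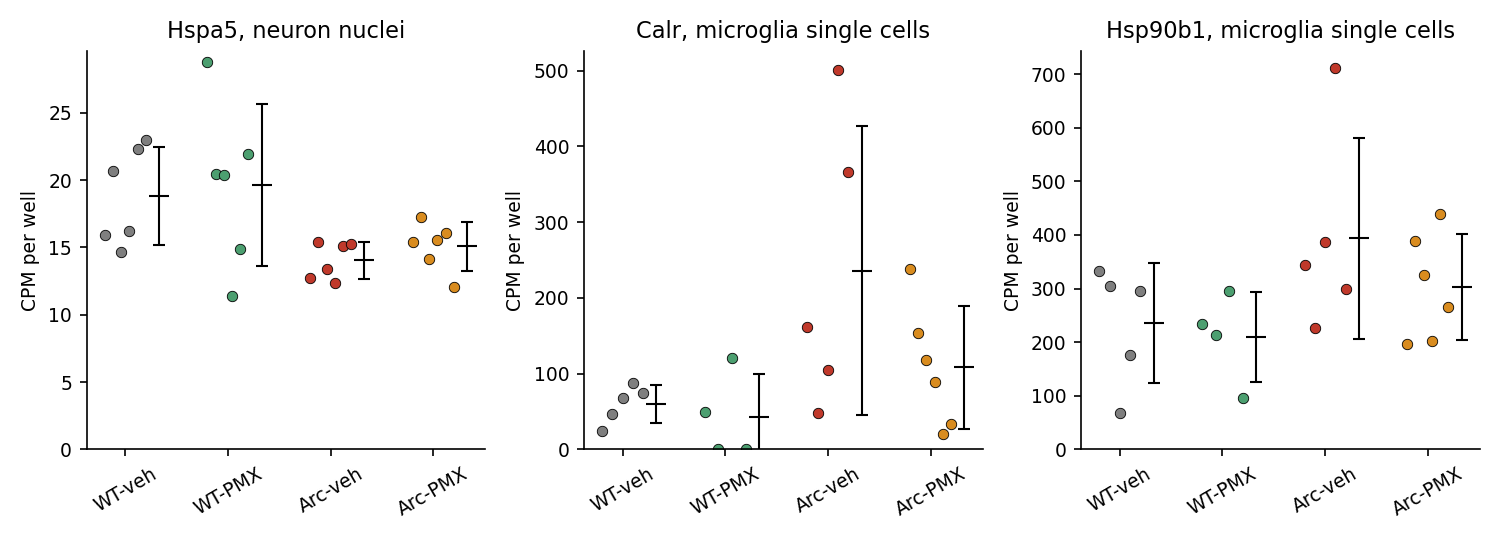
CPM per well of *Hspa5* in neuron nuclei (left), *Calr* in single-cell microglia (middle) and *Hsp90b1* in single-cell microglia (right), with 1 point per well and the mean ± SD of the group beside the points (bars are cut at 0). Arctic wells of *Hspa5* lie low and close together within the WT range, and the highest wells of *Calr* and *Hsp90b1* are Arc-veh wells.

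A further 144 genes of the same pathways, none of them among the 30, were examined in lists. In neurons, where 0.153% of all genes tested were called, none of them was called for genotype: 0 of 25 other ER chaperone and translocation genes, 0 of 17 ERAD genes, 0 of 13 sensors and factors, 0 of 16 kinases and eIF2 factors, 0 of 30 ATF4 targets, 0 of 15 heat shock genes of the cytosol and mitochondria, and 0 of 10 immediate early genes. Their medians were -0.305 (immediate early) to 0.011 on the log2 scale. In astrocytes, where 20% of all genes tested were called, the ATF4 targets moved in both directions, with 2 of 17 higher and 4 lower and a median of -0.132. The neutral amino acid carriers *Slc1a5* (2.843 ± 0.381, adjusted p = 1.91e-07) and *Slc1a4* (0.431 ± 0.115, adjusted p = 0.00461) rose. *Cth*, which makes cysteine (-0.786 ± 0.183, adjusted p = 0.0012), *Jdp2*, a bZIP repressor (-0.732 ± 0.189, adjusted p = 0.00353), and *Psat1* (-0.458 ± 0.153, adjusted p = 0.0281), an enzyme of serine synthesis, fell. *Slc1a5* was 0 to 12.5 CPM in the 12 WT wells and 11.0 to 52.4 CPM in the 12 Arctic wells. The call of *Psat1* was lost without WT-veh wells F3 and M3, at a similar size (-0.411, adjusted p = 0.069).

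Among the other lists in astrocytes, 2 of 7 sensors and factors rose, *Wfs1*, an ER membrane protein (0.944 ± 0.216, adjusted p = 0.000962), and *Cebpg*, a partner of ATF4 (0.968 ± 0.229, adjusted p = 0.00142). *Eif2ak2* (PKR), the eIF2 kinase that responds to double-stranded RNA, rose by 0.634 ± 0.124 (adjusted p = 0.000135), 1 of 10 in its list. *Magt1*, a subunit of the glycosylation complex, fell by -0.559 ± 0.185 (adjusted p = 0.0263, and -0.527 with an adjusted p of 0.054 without WT-veh wells F3 and M3), 1 of 12 ER chaperone and translocation genes. None of the 14 ERAD genes and none of the 10 heat shock genes was called. *Fos* and *Junb*, the only 2 of 15 immediate early genes that passed the count filter, rose by 2.678 ± 0.312 (adjusted p = 9.46e-09) and 3.900 ± 0.501 (adjusted p = 8.08e-08). *Fos* was 0 to 12.5 CPM in WT and 14.1 to 80.6 CPM in Arctic wells, and *Junb* 0 to 3.66 and 4.79 to 52.4 CPM. Both passed the filter through Arctic wells, so the 2 calls say little about the list. *Junb* had 1 transcript in WT-veh and 6 in WT-PMX, so its fold change rests on WT values near 0. These genes can also rise while tissue is handled.

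*Aldh1l2* (chr10:83487450-83534140, minus strand), a mitochondrial enzyme of folate metabolism and a target of ATF4, had the smallest adjusted p of the 144 genes. In oligodendrocyte nuclei it was 0 to 65.0 CPM in the 12 WT wells with a median of 25.9, and 113 to 235 CPM in the 12 Arctic wells with a median of 179. All Arctic wells were above all WT wells. The averaged log2 fold change was 2.762 ± 0.186 (adjusted p = 6.45e-15), and 2.745 (adjusted p = 2.36e-13) without WT-veh wells F3 and M3, which held few oligodendrocytes. It also rose in OPC (1.407 ± 0.247, adjusted p = 8.95e-05) and dentate granule nuclei (1.046 ± 0.235, adjusted p = 0.0128). In all neurons it was tested and not called. In astrocytes and in both microglial preparations it was below the count filter and was not tested, so the values there are descriptions. In astrocytes the median was 4.65 CPM over WT and 16.5 over Arctic wells, with 7 of 12 Arctic wells above every WT well. In all neurons the medians were 4.96 and 6.71 CPM, with 2 of 12 above. In single-cell microglia they were 0 and 11.5 CPM, with 6 of 11 above, from few transcripts. In microglial nuclei they were 0 and 11.6 CPM, and no Arctic well exceeded the highest WT well (119 CPM). In oligodendrocytes *Aldh1l2* was the only ATF4 target called of 11 tested (all genes, 5.55%), and no member of the 30 was called there. Its span overlaps another gene model (*D10Wsu102e*), and the strand setting of the counting is not given in the sources used here. In single-cell microglia, where 19.5% of all genes tested were called, 2 of 4 kinases and eIF2 factors and the 1 sensor or factor tested were called. *Eif2ak2* (0.818 ± 0.252, adjusted p = 0.0214) and *Creb3l2* (0.850 ± 0.305, adjusted p = 0.0476), a factor that raises secretory genes, rose, and *Gcn1l1*, an activator of the eIF2 kinase GCN2, fell (-1.164 ± 0.333, adjusted p = 0.0135). Without WT-veh well F2 the values were 0.723 for *Eif2ak2* (adjusted p = 0.0666), 0.968 for *Creb3l2* (adjusted p = 0.052) and -1.372 for *Gcn1l1* (adjusted p = 0.00874).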

How the data were processed

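The deposited counts are transcript counts per gene and barcode, which the authors made with split-pipe on mm10 and deposited unfiltered, and which are not normalized. The authors' sample sheet gave the group and sex of each first-round well, and each well was added up across the 7 sublibraries, whose labels name no group. Cells were kept by the published limits: over 300 and under 50000 transcripts, for single cells under 10% mitochondrial transcripts and over 300 genes, and for nuclei under 1% and over 400 genes. Doublets scoring over 0.25 in Scrublet (scanpy 1.11.5) were removed, 8 single cells and 1247 nuclei. Leiden clusters (2000 variable genes without the pathway genes, 30 components, 15 neighbours) were named from at least 3 detected markers. The naming rules and the limits for neuron classes (5 markers, score 0.4) were chosen once the clusters were known. Cell types were rebuilt here and may differ from the authors' clusters.

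A well entered the test of a cell type with 10 or more cells, which left 21 wells for microglial nuclei and 20 for single-cell microglia. Summed counts were tested by edgeR 4.0.16 (R 4.3.3, TMM, filterByExpr, quasi-likelihood test) with all 4 groups in one fit and sex as a covariate, and p-values were adjusted by Benjamini-Hochberg over all genes of a cell group and contrast. P-values measure the spread between wells. Alternatives covered RLE scaling, DESeq2 1.42.0, no low-count filter, no sex covariate, a replicate block, removal of transcripts that share sequence with ribosomal RNA, doublets kept, a limit of 500 transcripts and genes, naming cell by cell, only the compared wells, and leaving out wells. The fit of *Calr* without the filter and without each well was added after seeing the data. The 30 genes, the lists and the tests were chosen with earlier results of these data known. Wells are described for each called gene of the 30 and for *Hspa5*, *Hsp90b1*, *Calr*, *Xbp1*, *Atf4* and *Eif2ak3* in neurons, astrocytes and microglia. At most 5 called genes are named per list and cell type, with wells given for *Slc1a5*, *Fos*, *Junb* and *Aldh1l2*. All 30 gene identifiers matched GENCODE vM21 (GRCm38). The 6 plaque-associated genes and the genes named by neuron class were chosen after their values were seen.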

Additional observations from a re-analysis of the deposited data

Results flagged for a closer look

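In each group of 4 to 6 wells, the lowest and the highest value of a named gene were compared with the nearest of the others, and a gap that was large for the range of the group was recorded. This was found in 8 of 103 groups of wells, and chance alone gives about 1 in 20.

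In neuron nuclei, *Eif2ak3* was low in Arc-veh well F1 (23.54 CPM, the nearest well 27.77) and *Xbp1* was high in Arc-veh well F2 (7.11 CPM, the nearest 5.48). In astrocyte nuclei, *Pdia4* was low in Arc-veh well F1 (11.04 CPM, the nearest 33.52). In microglial nuclei, *Eif2ak3* was high in Arc-PMX well M2 (158.48 CPM, the nearest 57.31) and *Hsp90b1* was high in Arc-PMX well F2 (343.84 CPM, the nearest 194.99). In single-cell microglia, *Atf4* (23.82 CPM) and *Xbp1* (47.64 CPM) were detected in WT-veh well F1 and in no other WT-veh well, and *Atf4* was detected in WT-PMX well M3 (31.94 CPM) and in no other WT-PMX well. Each of these 2 values of *Atf4* came from 1 transcript and that of *Xbp1* from 2. With every other well of the group at 0, any detected transcript meets the criterion, so these 3 carry no information on the spread.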

How the results depend on the processing

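For genotype (Arc minus WT averaged over water and PMX205), 2 of 151 tests of the 30 genes were called, against 3.87% over all genes, and without the filter on low counts 5 of 295, against 1.72% over all genes (*Pdia4* and *Edem1* in astrocytes, *Hspa5* in neurons, *Hsp90b1* and *Calr* in single-cell microglia). Leaving out 1 well gave 2 to 3, with *Canx* in astrocytes or *Calr* in single-cell microglia as the added call. Under water, 1 test was called (*Edem1* in astrocytes) and 0 with the replicate block, with doublets kept, with cells over 500 transcripts and 500 genes, and without WT-veh wells F3 and M3. The count was also 0 with only the wells of the groups compared, where *Edem1* did not pass the filter and was not tested. With no filter on low counts 1 test was called, but it was *Calr* in single-cell microglia, and *Edem1* lost its call (adjusted p = 0.088). The count was 2 with cells named one by one (*Calr* in single-cell microglia was the added call), and 0 to 1 on leaving out 1 well. Under PMX205, 1 test was called (*Pdia4* in astrocytes), 0 with only the wells of the groups compared, and 0 to 1 on leaving out 1 well. The PMX205 contrasts gave 0 under every alternative run. The averaged contrast and the difference between PMX205 effects need all 4 groups and were not run on only the compared wells.

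Over the 90 combinations of a named gene, cell group and contrast, 3105 alternative values were computed, some of which could not move because the wells left out were of the other preparation: 3080 stayed on their side of the threshold (some that were never called changed sign), 22 called values lost the call (15 of *Edem1* under water, 7 of *Pdia4* under PMX205), 3 gained it and 0 called values changed direction. With cells named one by one, the summed level of the 30 genes in microglial nuclei was 1282.8 CPM in place of 1580.0, and the number of genes highest there was 21 to 24 under the 3 alternatives, against 24. Well numbers were not taken to pair the mice. The correlation of same-numbered wells' deviations ran from -0.653 to 0.616 in neurons, both in M3. It ran from -0.304 to 0.339 in astrocytes and from -0.22 to 0.251 in single-cell microglia. All pairs were positive for M2 in neurons (0.018 to 0.439) and F2 in single-cell microglia (0.04 to 0.175). Deviations were taken from means of few wells of a group and sex, so these values cannot decide on a pairing. With the replicate block the averaged contrast had 3 calls, *Hsp90b1* in single-cell microglia being added (0.702, adjusted p = 0.0313). The cause of these changes was not tested. In single-cell microglia 3 of the 30 genes passed the filter, the fewest of any cell group, and low genes such as *Trib3* and *Chac1* were tested nowhere.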
